A study of Homo sapiens with 6 samples.

Results

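FGF receptors are cell-surface tyrosine kinases that bind fibroblast growth factors together with heparan sulfate. The activated receptor phosphorylates the membrane-anchored docking adaptors FRS2 and FRS3, which recruit GRB2 and thereby pass the signal to the Ras-MAPK and PI3K/Akt cascades. FGFRL1 binds the ligands but lacks the kinase domain, and KLB (beta-Klotho) is the co-receptor for the endocrine ligands FGF19 and FGF21. Among blood cancers, FGFR3 is best known as the target of a translocation in multiple myeloma.

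The group described here holds 8 genes, namely the kinase receptors FGFR1, FGFR2, FGFR3 and FGFR4, the receptor FGFRL1, the adaptors FRS2 and FRS3, and the co-receptor KLB, out of 19740 genes that the array probes could be named for. The genes were chosen by name, after FGFR2 and FGFR3 had been seen to be higher with IL-17A on these same arrays. The IL-17A differences of the members are therefore given as a description, without a p-value. SU-DHL-2 is an established human DLBCL line, and it served here as the sole model. The cells of 3 samples received IL-17A at 200 pg/ml over 72 h, and those of 3 control samples spent 72 h without it. RNA of each sample was labeled with Cy3 and hybridized to its own 1-colour array. The labels do not say whether the 3 samples of a group came from separate cultures, so every spread below may be technical.

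The members were measured by 12 probes, each printed as 1 spot. FGFR1, FGFR2, FGFR3 and KLB had a pair of probes each and the other members a single probe. A signal is called well above background when the extraction software marked it as positive, significant and well above background. The lowest signal marked this way was between 1.86 and 2.11 on the log2 scale across the 6 arrays. A probe was tested when it was well above background on at least 3 of the 6 arrays, which held for 7 of the 12 probes and for every member except KLB. Of the other probes, 4 were well above background on no array. Signals of different probes depend on the probe as well as on the transcript, and are therefore not set against each other. A lower signal in bulk RNA cannot tell fewer expressing cells from less RNA per cell.

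The array files carry a scan identifier, which the controls shared with IL-17A replicate 1, whereas IL-17A replicates 2 and 3 shared a different one. Arrays with the same identifier were taken to lie on 1 slide, which no label states, and slide in this sense is partly confounded with treatment. No spot was saturated. All 10 B cell markers checked, among them CD79A and PAX5, were well above background on every array, with a summed signal of 77600 to 78700 with IL-17A and 70700 to 75200 in the controls. The 7 plasma cell markers were also all detected, at 15700 to 17600 against 14400 to 15500. Of 10 mesenchymal markers, 8 were well above background on no array, including COL1A2, COL3A1, DCN, LUM and PDGFRA, and the summed signals overlapped at 29.9 to 34.4 with IL-17A and 25.5 to 34.5 in the controls. Of 8 epithelial markers, CDH1, KRT5 and KRT14 were on no array well above background, while EPCAM was on all, with sums of 1210 to 1270 against 1330 to 1360. The sums were 295 to 314 against 332 to 375 for 7 endothelial markers with KDR undetected, 1050 to 1150 against 1230 to 1430 for 9 T and NK cell markers with NCAM1 and KLRD1 undetected, and 99.3 to 104 against 104 to 150 for 6 monocyte markers with CSF1R, FCGR3A and CD163 undetected. Most of the T and NK cell sum came from CD4, with mean signals of 891 (IL-17A) and 1110 (control). Among the other detected markers of this list, CD3E and CD8A were also lower (log2 differences -0.46 and -0.51), but CD2 was higher (0.51). The groups overlapped for CD3D, CD3G and NKG7. What part the shifts in the marker sums had in the differences below was not tested.

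FGFR2 and FGFR3 were the members with the largest differences, and both were higher with IL-17A. The windows of 250 bases before to 50 bases after their outermost transcription starts listed by RefSeq (GRCh38.p14) are shown because these genes carry the largest differences of the group. FGFR2 lies on the minus strand (chr10:121598395-121598694, the outermost of 5 starts listed) and FGFR3 on the plus strand (chr4:1793043-1793342). Capitals mark GC boxes, that is GGGCGG or its complement CCGCCC.
FGFR2: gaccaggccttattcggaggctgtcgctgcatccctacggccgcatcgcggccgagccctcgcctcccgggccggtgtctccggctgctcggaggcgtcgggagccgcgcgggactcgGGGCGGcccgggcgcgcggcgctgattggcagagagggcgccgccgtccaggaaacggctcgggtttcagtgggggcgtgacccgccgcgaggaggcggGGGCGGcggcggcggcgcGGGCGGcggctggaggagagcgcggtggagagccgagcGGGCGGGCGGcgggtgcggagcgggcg
FGFR3: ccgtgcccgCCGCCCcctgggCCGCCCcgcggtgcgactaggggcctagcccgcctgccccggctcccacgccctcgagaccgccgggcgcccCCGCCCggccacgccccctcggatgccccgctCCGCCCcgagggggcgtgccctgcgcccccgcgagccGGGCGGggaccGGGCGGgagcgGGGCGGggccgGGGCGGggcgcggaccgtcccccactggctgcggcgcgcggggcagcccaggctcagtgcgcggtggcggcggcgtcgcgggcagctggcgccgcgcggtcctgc

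The FGFR2 window held 5 GC boxes, a pair of which overlap, and the FGFR3 window held 8, searched on both strands. A GC box was present in 45.0% of the 35116 RefSeq windows of the same length. The GC content was 79.3% for FGFR2 and 86.3% for FGFR3, against a median of 58.7% over all windows. A CCAAT box, found in 34.6% of all windows, was present in the FGFR2 window and not in that of FGFR3. Neither window held the letters TATAAA, found in 11.5% of all windows, nor the NF-kB consensus, found in 5.91%. The other FGFR2 starts differed from the outermost one, with a GC content of 47.3 to 50.7%, a GC box at 1 of them and an NF-kB match at 1. GC boxes were not particular to FGFR2 and FGFR3, since the FGFRL1 window held 4, that of FRS2 3, that of FRS3 6 (GC content 77.0%) and 1 of the FGFR4 windows 7 (78.7%). These matches describe the letters of the windows and are no evidence of binding.

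At the brighter probe of FGFR2, the log2 normalized signal was 3.23, 3.45 and 3.13 in IL-17A replicates 1 to 3, and 2.07, 2.62 and 2.38 in control replicates 1 to 3. Every IL-17A array was above every control array, and control replicate 1 was the only 1 of the 6 arrays not well above background. The IL-17A mean was 3.27 ± 0.16 (SD, n = 3) against a control mean of 2.36 ± 0.28 (SD, n = 3), a 1.88-fold difference (log2 difference 0.91, standard error 0.16 in the limma fit). The other FGFR2 probe, designed on the same transcript accession, had a signal at or below the intensity floor of 1 on all 6 arrays and therefore gives no second reading of the gene.

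FGFR3 had a log2 signal of 3.25, 3.12 and 2.88 at its brighter probe with IL-17A, and of 1.85, 1.41 and 2.71 in the controls. The groups did not overlap, but control replicate 3, the only control array well above background, lay close to the lowest IL-17A array. The mean was 3.08 ± 0.19 (SD, n = 3) against 1.99 ± 0.66 (SD, n = 3), a 2.14-fold difference (log2 difference 1.1, standard error 0.33). Because control replicates 1 and 2 were not well above background, the size of this difference is uncertain, and it was 1.85-fold when signals below the detection limit of an array were set to that limit, and 1.63-fold with the values normalized by the authors. FGFR3 met the detection filter through its 3 IL-17A arrays and 1 control. The dimmer FGFR3 probe was well above background on no array, at values between 0 and 1.13, and gives no direction.

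**Figure D1:**
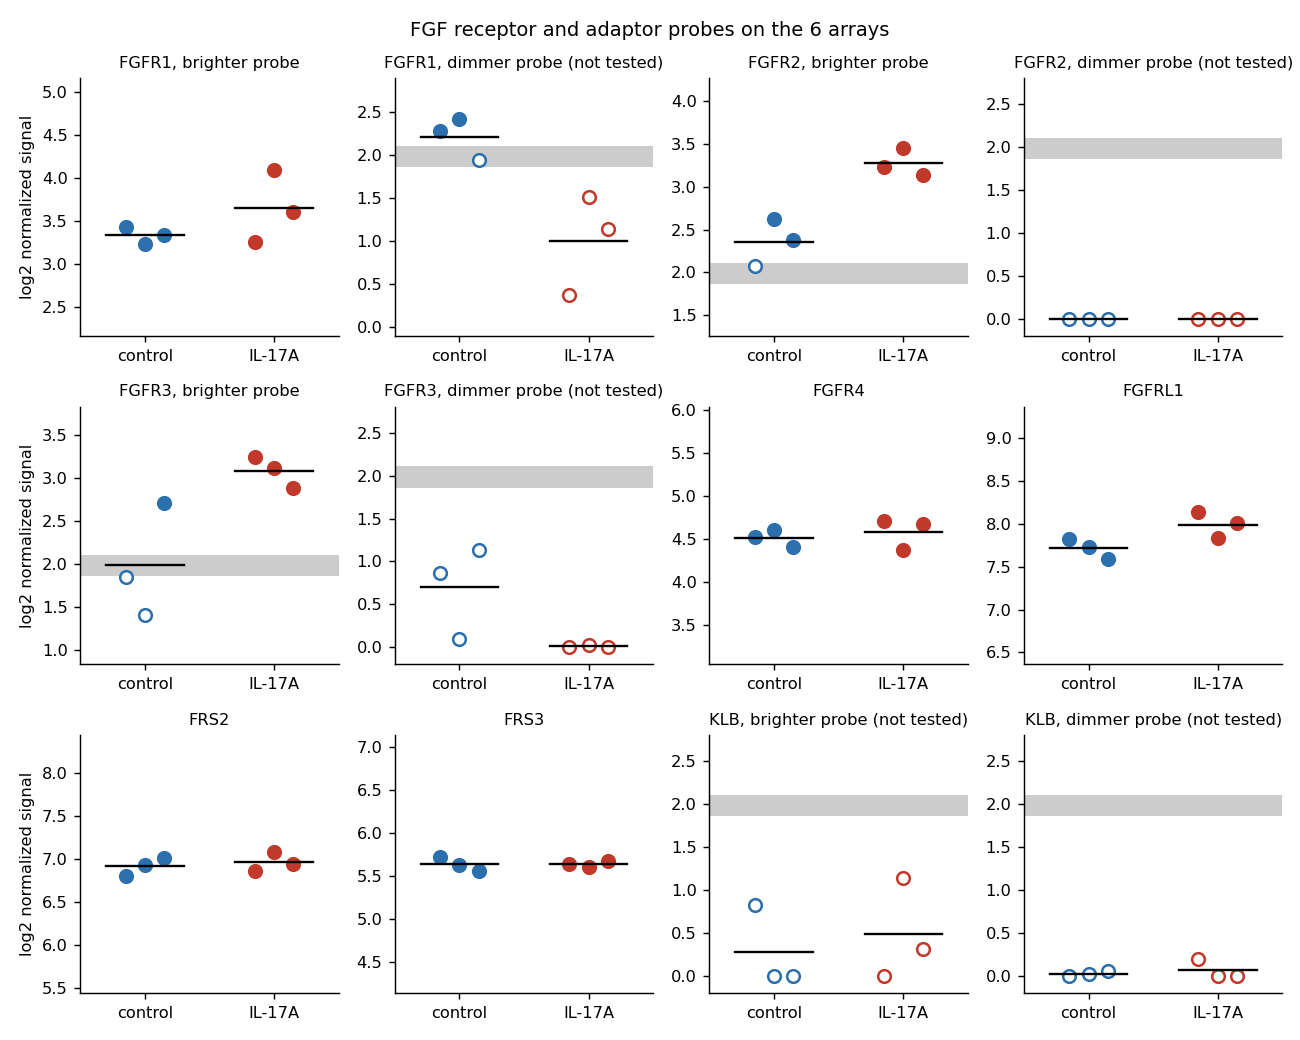
Log2 normalized signal (y axis, spanning 3 log2 units in each panel) of the 12 member probes in the control and IL-17A arrays (x axis), with replicates 1 to 3 from left to right, the group mean as a line, filled points for signals well above background, open points for the others, and a grey band for the lowest signal well above background across arrays (1.86 to 2.11). The brighter FGFR2 and FGFR3 probes sit just above this band with IL-17A and at or near it in the controls, while FGFR4, FRS2 and FRS3 lie at the same height in both groups.

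The FGFR1 probes gave no shared direction. The brighter probe had a log2 signal of 3.25, 4.09 and 3.60 with IL-17A and 3.43, 3.23 and 3.34 in the controls. All 6 arrays were well above background and the groups overlapped, with IL-17A replicate 2 standing above the rest. The difference of 0.31 on the log2 scale (standard error 0.21) was 0.09 without this array. The dimmer probe, designed on another FGFR1 transcript accession, had a log2 signal of 0.37, 1.51 and 1.14 with IL-17A, none of it well above background. In the controls it was 2.28, 2.42 and 1.94, with control replicates 1 and 2 well above background. With the IL-17A arrays raised to their lowest signal well above background, this probe was 1.14-fold lower with IL-17A. The control mean in this value includes control replicate 3, which was not well above background, so it is not a strict lower bound. It was detected on too few arrays to be tested.

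FGFR4, whose best-known ligand is FGF19, had a log2 signal of 4.71, 4.37 and 4.68 with IL-17A and 4.52, 4.61 and 4.41 in the controls. The groups overlapped, and the log2 difference of 0.07 (standard error 0.11) was below the SD of the IL-17A arrays, 0.19 (n = 3). FGFRL1, the kinase-less receptor, was at 8.13, 7.83 and 8.01 with IL-17A and 7.82, 7.73 and 7.59 in the controls. Its lowest IL-17A array was above its highest control array by a narrow margin, and the mean was 1.21-fold higher with IL-17A (log2 difference 0.28, standard error 0.10). FGFRL1 was detected on all 6 arrays, unlike FGFR2 and FGFR3.

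The docking adaptors differed between the groups by less than the SD of their arrays. FRS2, the broadly expressed adaptor, had a log2 signal of 6.86, 7.08 and 6.94 with IL-17A and 6.80, 6.93 and 7.01 in the controls, a difference of 0.05 (standard error 0.08). FRS3 was at 5.64, 5.60 and 5.67 with IL-17A and 5.72, 5.63 and 5.55 in the controls, a difference of 0.00 (standard error 0.05). For each adaptor the groups overlapped, and all 6 arrays were well above background. KLB was well above background on no array at either probe, with values between 0 and 1.14, so no level of the co-receptor was measured in either group.

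Of the 7 members with a tested probe, FGFR2 and FGFR3 passed both thresholds of the fold change filter in the study's methods, 1.5-fold or more in either direction and p below 0.05 before adjustment. The methods also set a false discovery rate under 0.05, which FGFR2 met in the limma fit of all 6 arrays and FGFR3 did not. FGFR2 met it under 3 of 16 alternatives. It did not under the methods' t-test, 75th percentile scaling, the replicate or slide block, or with any 1 array left out. Among all 14747 tested genes, each at its brightest tested probe, 1.92% passed both, 0.814% higher and 1.11% lower with IL-17A. Since the members were picked with these arrays in view, nothing can be read from this count. The balance of directions also depended on scaling, as 46.2% of the 522 probes past both thresholds were higher with IL-17A after quantile normalization and 26.2% of 572 when the arrays were instead scaled at the 75th percentile. FGFR2, FGFR3 and FGFRL1 were the 3 members whose groups did not overlap at the tested probe, all of them higher with IL-17A. Of all tested genes, 40.7% had groups that did not overlap, and 21.4% had groups that did not overlap and were higher with IL-17A. The median log2 difference of the 7 tested members was 0.28, against 0.00 for all tested genes. FGFR3 had a larger absolute difference than 99.6% of the tested genes, FGFR2 than 99.2%, FGFR1 than 87.5%, FGFRL1 than 84.4%, FGFR4 than 33.7%, FRS2 than 23.4% and FRS3 than 1.36%. The group was formed after FGFR2 and FGFR3 had been seen to be higher. Nothing can therefore be read from the lack of overlap, the median or these ranks either.

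Calls past both thresholds were more frequent among dim signals than among all tested genes, of which 1.92% passed. In a window of mean log2 signal from 2.04 to 3.31, set around FGFR2 and FGFR3 after their values were seen, 135 of 1352 tested genes (9.99%) passed both thresholds, 60 of them higher and 75 lower with IL-17A. The median absolute log2 difference was 0.27 in this window, against 0.11 for all tested genes.

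**Figure D2:**
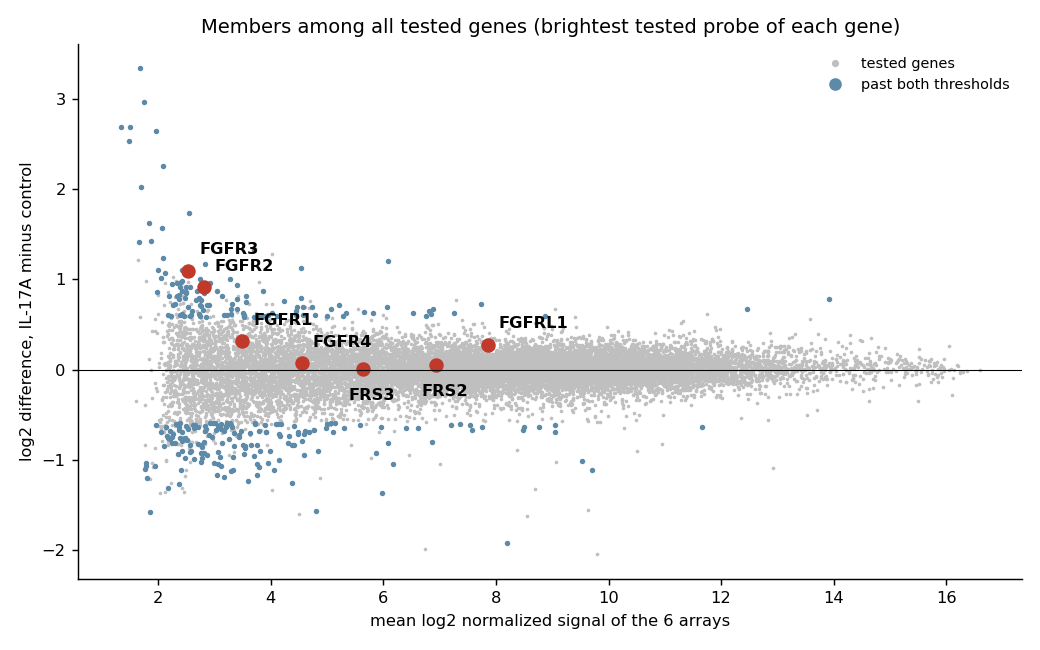
Log2 difference between IL-17A and control (y axis) against the mean log2 normalized signal of the 6 arrays (x axis) for 14747 tested genes, in blue those past both thresholds and in red the 7 tested members. FGFR2 (0.91) and FGFR3 (1.1) lie at the dim end of the plot, where large differences in either direction are frequent, and FGFR4, FRS2 and FRS3 lie near 0.

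Other settings describe the values by which FGFR2 and FGFR3 were noticed and give them no support. With 1 array left out, the log2 difference of FGFR2 lay between 0.77 and 1.05 and that of FGFR3 between 0.81 and 1.46. FGFR3 no longer passed both thresholds with the methods' t-test, with slide as a block (1.27), under normexp, or when IL-17A replicate 1 (1.01), IL-17A replicate 2 (1.08) or else control replicate 1 (1.03) was left out. Normexp, a background correction that added an offset of 50 to each signal, compressed both genes to 1.06-fold. With detection required on all 6 arrays, neither gene was among the probes tested.

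On the slide that held IL-17A replicate 1 and the controls, the log2 difference of that IL-17A array from the control mean was 0.87 for FGFR2 and 1.27 for FGFR3. It was 0.42 for FGFRL1, 0.19 for FGFR4, 0.01 for FRS3, -0.06 for FRS2 and -0.08 for FGFR1. FGFR1 and FRS2 thus changed sign within the slide. FGFR2, FGFR3 and FGFRL1 could not, since each of their IL-17A arrays was above every control, so their sign here is no test of slide. These within-slide values rest on a single IL-17A array.

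**Figure D3:**
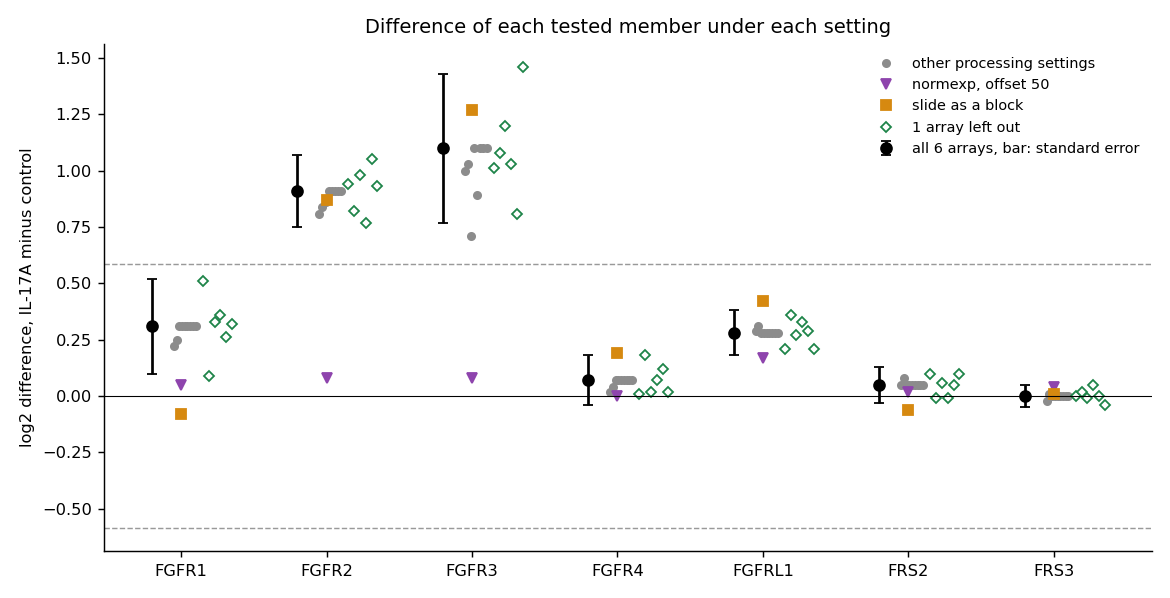
Log2 difference between IL-17A and control (y axis) for the 7 tested members (x axis), with the standard error of the limma fit as a bar, the same value under other settings and with 1 array left out as symbols, and dashed lines at a fold change of 1.5. FGFR2 and FGFR3 fall to 0.08 under normexp with an offset of 50, and the values of FGFR1 range from -0.08 to 0.51.

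The genes that act with the receptors were followed with lists written from general knowledge, each gene at its brightest tested probe and with p-values from limma, adjusted over all tested probes. Outside the receptors, 67 of the 89 genes in the 7 lists had a tested probe. FOS was the only 1 of them past both thresholds (1.49%), and GPC3, GPC4 and HRAS had an adjusted p under 0.05 (4.48%). Over all tested genes, 1.92% passed both thresholds and 7.85% had an adjusted p under 0.05. The number of adjusted calls fell whichever array was left out. The 1818 probes with an adjusted p under 0.05 became 69, 3 and 4 without IL-17A replicates 1, 2 and 3. Without control replicates 1, 2 and 3 they became 2, 8 and 983. Each of these fits also has fewer arrays, and the cause of the fall was not tested.

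Among the 18 secreted ligands, 10 had a tested probe and none passed both thresholds or had an adjusted p under 0.05, while 2 had an unadjusted p under 0.05, as did 31.8% of all tested genes. FGF7, a ligand of an FGFR2 splice form, was at 7.44, 7.66 and 7.59 with IL-17A and 7.37, 7.25 and 7.42 in the controls. Its IL-17A arrays were all above the controls by a small amount (log2 difference 0.22, standard error 0.08, adjusted p = 0.127 from limma). FGF3 was lower on all IL-17A arrays, at 4.86, 4.94 and 5.20 against 5.40, 5.61 and 5.44 (log2 difference -0.49, adjusted p = 0.0526). The endocrine ligands FGF19 and FGF23 were well above background on no array, and FGF21 was on 1 IL-17A array and on all 3 controls. FGF11, an intracellular homologue that does not signal through the receptors, had a log2 difference of 0.04.

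The co-receptor list gave calls in both directions. GPC3, a cell-surface heparan sulfate proteoglycan, fell from 6.17 ± 0.06 (SD, n = 3) to 5.76 ± 0.04 (SD, n = 3), a log2 difference of -0.41 (standard error 0.05, adjusted p = 0.0313 from limma). GPC4, of the same glypican family, rose from 4.98 ± 0.05 (SD, n = 3) to 5.27 ± 0.08 (SD, n = 3), a difference of 0.29 (standard error 0.06, adjusted p = 0.0449). Both changes were below 1.5-fold. For both genes the groups did not overlap, which held for 40.7% of all tested genes. GPC1 had the largest difference of the list, -0.60, but its IL-17A arrays ranged from 4.78 to 5.91 and the adjusted p was 0.221. GPC2 differed by 0.07. Of the 7 tested genes of 12, 1 rose and 1 fell at an adjusted p under 0.05 (28.6%, against 7.85% of all tested genes). This share rests on 2 genes and was not tested. The median difference of the list was -0.08.

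All 23 signal transducers had a tested probe, among them GRB2 and SOS1 of the adaptor complex. None passed both thresholds, and their differences lay between -0.25 and 0.20 with a median of 0.02. HRAS, a Ras GTPase, fell from 7.92 to 7.71 (log2 difference -0.21, standard error 0.04, adjusted p = 0.0418 from limma) and was the only 1 with an adjusted p under 0.05. CBL, the ubiquitin ligase that downregulates activated receptors, differed by -0.02. Of the 11 genes of PI3K and AKT, 10 were tested and none passed both thresholds or the adjusted threshold, although 5 had an unadjusted p under 0.05 (31.8% of all tested genes). Their differences ranged from -0.18 to 0.13, with 0.02 for the regulatory subunit PIK3R2.

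Among the feedback inhibitors of FGF signaling no gene was called. Of the 9 inhibitors, 6 were tested and none passed the thresholds, with a median difference of 0.15 and 1 unadjusted p under 0.05 (31.8% of all tested genes). SPRY4, a Sprouty inhibitor of the Ras-MAPK cascade, was at 4.87, 5.39 and 5.40 with IL-17A and 5.04, 4.96 and 4.63 in the controls, which overlapped (adjusted p = 0.256). SPRED2, another inhibitor of the cascade, had a difference of -0.12. IL17RD, a membrane inhibitor of FGF signaling that also belongs to the IL-17 receptor family, was at 5.77, 5.99 and 5.78 with IL-17A and 5.69, 5.64 and 5.84 in the controls (log2 difference 0.12, standard error 0.09, adjusted p = 0.367).

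Of the 12 targets, 10 were tested, with a median difference of -0.04. ETV4 and ETV5, the ETS factors most closely tied to FGF signaling, were well above background on no array. FOS, an immediate early gene, was past both thresholds at a log2 signal of 2.99, 2.60 and 3.01 with IL-17A against 2.28, 2.61 and 1.93 in the controls, of which 1 array was well above background. Its groups overlapped, the difference was 0.59 (standard error 0.20, adjusted p = 0.117), and it no longer passed with low signals set to the detection limit, the methods' t-test, normexp, the other normalizations or the replicate or slide block, nor without IL-17A replicate 1 or 3 or control replicate 1 or 3. MYC differed by 0.04. The targets include DUSP4, a phosphatase of MAP kinases, with a difference of -0.31 and an adjusted p of 0.0996.

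**Figure D4:**
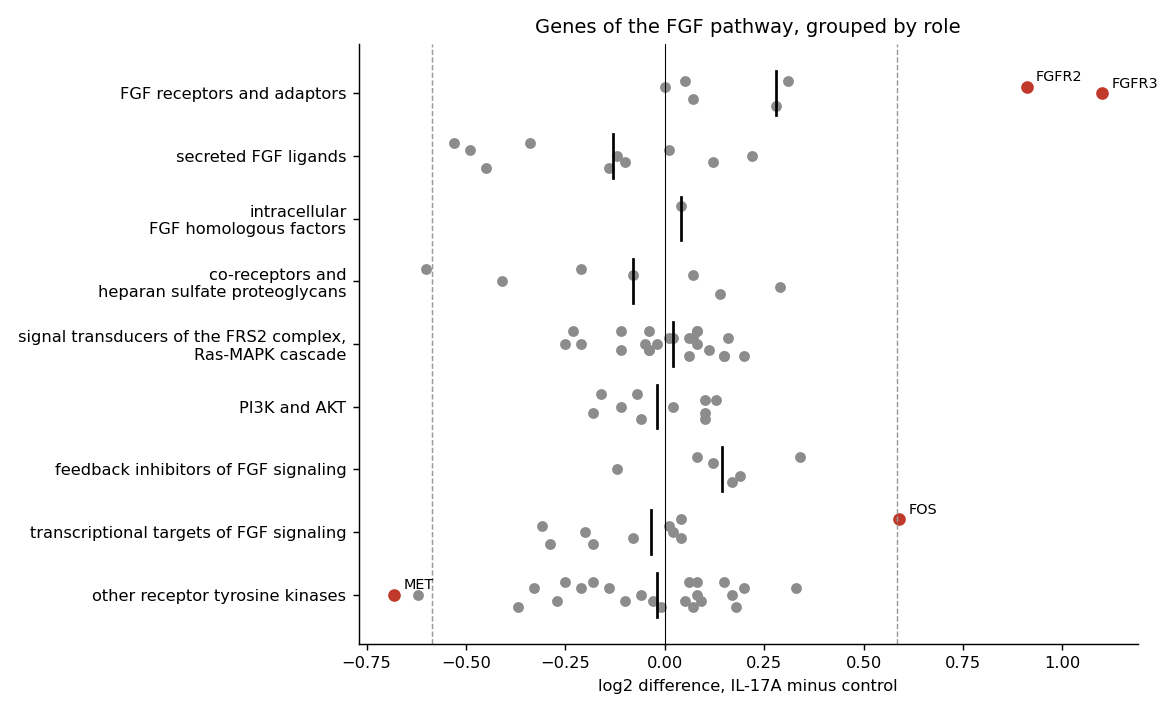
Log2 difference between IL-17A and control (x axis) for the tested members and for the tested genes of 8 lists (y axis), 1 point per gene, with the list median as a black line, dashed lines at a fold change of 1.5 and red points for genes past both thresholds. FGFR2 and FGFR3 lie to the right of the other groups, but they were chosen after these values were seen, and their signals are dim. FOS lies on the threshold at 0.59 and MET at -0.68, and the medians of the 8 lists lie between -0.13 and 0.15.

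The genes whose signals followed FGFR2 and FGFR3 most closely over the 6 arrays were found by Pearson correlation at the brightest tested probe, as a description of these arrays. For FGFR2 they were KNSTRN (r = 0.998), PIGH (r = 0.995) and TPD52 (r = 0.9917). For FGFR3 they were LINC00265 (r = 0.9953), KLHL11 (r = 0.9908) and COX7C (r = 0.9906). Their own log2 differences were much smaller, with 0.09, 0.08 and 0.22 for the first group and 0.26, 0.46 and 0.08 for the second. These values are the highest of a search over all tested genes on 6 arrays, which share the contrast between the groups.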

How the data were processed

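Per the file headers and the methods, each array was extracted by the authors with Agilent Feature Extraction 11.0.1.1, which gave an intensity per spot with background subtracted and no normalization between arrays. A deposited table of log2 values, quantile normalized by the authors, served as an alternative. Depth does not apply to arrays, and their number limits the precision.

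Control and non-uniform spots were left out, intensities below 1 were set to 1, spots of a probe were averaged as log2 values, and the 6 arrays were quantile normalized. Of 34127 probes, 25771 were named through their RefSeq accession (GRCh38.p14). The groups came from the sample titles. The 23945 probes detected on at least 3 arrays were compared with limma 3.58.1 (R 4.3.3), two-sided and without covariates, with p-values adjusted by Benjamini-Hochberg across the tested probes, after the code had been tested on simulated data. Where a probe was well above background on no array of 1 group, that group was raised to the lowest such signals, for an approximate bound. The design of the arrays refers to an earlier genome assembly, and no probe position was used.

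The members, lists and alternatives were chosen with earlier results of these data known. Named were all members, list genes past both thresholds, the gene of each list whose probe gave the highest signal, IL17RD and the 3 genes most correlated with FGFR2 and with FGFR3. GPC1, GPC3, GPC4, HRAS, FGF3, SPRY4, DUSP4, INSR, LTK, MERTK, DDR2, the endocrine ligands, ETV4, ETV5 and the single markers were picked with their values in view. As alternatives served other normalizations, normexp, detection filters, a floor, a variance trend, the methods' t-test, replicate and slide blocks, a fold change of 2, other probes of a gene and arrays left out.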

Additional observations from a re-analysis of the deposited data

How the results depend on the processing

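The number of arrays and, for FGFR2, FGFR3 and FOS, signals close to background limit these results. Of 117 values of the 7 tested members under the alternatives, 113 moved by less than the spread between replicates and 4 by more (FGFR2 and FGFR3 under normexp, FGFR1 and FGFRL1 with slide as a block), and neither FGFR2 nor FGFR3 changed direction. These counts do not measure stability. The detection filters, variance trend, methods' t-test and replicate block reuse the same normalized values and cannot change a log2 difference. Leaving out 1 of the 3 arrays of a group cannot move it beyond this spread. A mean over the tested probes of a gene was not run for the members, which have 1 tested probe each. The count of 522 probes past both thresholds became 15 under normexp with an offset of 50, 299 with probes detected on all 6 arrays, 978 with no filter on detection and 82 at a fold change of 2, and it ranged from 409 to 658 with 1 array left out. The 1818 probes with an adjusted p under 0.05 became 46 with no normalization between arrays, 3846 with a variance trend, 48 with slide as a block and 2 to 983 with 1 array left out. The count of 2 pathway genes past both thresholds, FOS and MET, became 0 under normexp and with the authors' series matrix values, 1 (MET) with the 75th percentile, no normalization, probes detected on all 6 arrays, dim signals raised or the methods' t-test, 1 (FGF3) with slide as a block, and 1 to 3 with 1 array left out. Without IL-17A replicate 3 neither FOS nor MET was among them, and FGF3, FGF21 and DDR2 were. The cause of these shifts was not tested, apart from the fewer or more probes that a filter leaves and the higher bar of a larger fold change.

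Arrays with the same replicate number did not deviate together (correlations of -0.09, 0 and -0.05 across probes), so the numbers were not taken as pairs. With the replicate number as a block, 527 probes passed both thresholds, 4 had an adjusted p under 0.05 and 1 pathway gene (MET) passed. FGFR2 and FGFR3 still passed both thresholds, but neither had an adjusted p under 0.05.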

Other observations

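Other receptor tyrosine kinases, the relatives of the FGF receptors, were described on the same arrays. They are no test of FGFR2 and FGFR3, which were chosen after their differences had been seen. Of 36 such kinases, 24 had a tested probe, and their median log2 difference was -0.02. Of these, 1 passed both thresholds (4.17%, against 1.92% of all tested genes). This was MET, the receptor of hepatocyte growth factor, which was lower with IL-17A, at a log2 signal of 3.15, 2.73 and 2.60 against 3.22, 3.67 and 3.62 in the controls (log2 difference -0.68, standard error 0.19, adjusted p = 0.0794 from limma). Its highest IL-17A array lay just under its lowest control array, and it no longer passed without IL-17A replicate 3, with slide as a block, under normexp or with the authors' series matrix values. INSR, the insulin receptor, rose by a log2 difference of 0.18 (adjusted p = 0.0437) and LTK fell by 0.25 on the log2 scale (adjusted p = 0.0495), both below 1.5-fold. They made up 8.33% of the tested kinases, near the 7.85% of all tested genes with an adjusted p under 0.05. ROR1 had a log2 difference of -0.01. MERTK, a receptor of apoptotic cell ligands, had a difference of 0.33 (adjusted p = 0.0835), and DDR2, a collagen receptor, of -0.62 (adjusted p = 0.304) at signals near background.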
